A study of Mus musculus with 12 samples.

Results

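The ATAC-seq peaks described here lie in an intron after the first, outside annotated repeats. They are the rows of the annotated peak list with a centre more than 500 bp from the nearest transcription start site (TSS), an annotation class of intron that is not intron 1, and a detailed annotation that is also an intron, so that no repeat, CpG island or other element lies at the centre. There were 18326 such peaks among 84243 in all (21.8%), and they made up 25.8% of the 71072 peaks outside promoters. Of the 22433 later-intron peaks past the 500 bp limit, 4107 had a repeat, CpG island or other element at the centre and were set aside. The limit mattered for few peaks: the nearest peak kept was 512 bp from a TSS, the farthest one left out was 497 bp away, and 16 were left out in this way.

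The peaks come from a study of blood cells sorted from wild-type C57BL/6 mice aged 8 to 12 weeks. By the labels, T cells came from thymus, and bone marrow gave B cells, granulocyte/macrophages, erythrocyte progenitors, megakaryocyte progenitors and hematopoietic stem cells (HSCs). Each of these 6 populations has 2 replicates, which makes 12 samples. The table holds 1 list pooled over those samples, and it gives no sample, cell type or read value for a peak. Sequencing depth is thus unknown, no replicate error can be attached to a value, and no comparison between cell types was made. The 95% Wilson intervals given here cover counting error over peaks, which are neighbours on shared chromosomes and not replicates.

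ATAC-seq uses a transposase that cuts exposed DNA, so its peaks mark promoters, enhancers and sites held open by bound proteins. Enhancers often lie in introns, where they can act on the gene that holds them or on a neighbour. First introns start next to a promoter, whereas later introns lie farther along the transcript. In blood cells, open enhancers commonly carry binding sites for factors of the ETS, RUNX and GATA families, and sites of CTCF, which folds chromatin into loops, are open in most cell types.

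Examples of the sequences are shown first, to let the motif matches counted further on be seen in place. Each is the central 151 bp of a 499 bp peak, read on the plus strand of mm10 (RefSeq GRCm38.p6), with the motif matches in capitals. In 5 genes chosen by name, the peak shown is the one with a motif match nearest its centre. Gata2 encodes a transcription factor that stem cells need, and intron 4 of the gene has an E-box and GATA pair known to be an HSC enhancer. Bcl11a encodes a repressor of fetal globin genes, Nprl3 has the distal enhancers of the neighbouring α-globin genes in its introns, Iqgap2 encodes a scaffold protein beside the thrombin receptor genes, and Zfpm1 encodes the GATA cofactor FOG1.
Gata2, intron 4 of 5, chr6:88203171-88203321: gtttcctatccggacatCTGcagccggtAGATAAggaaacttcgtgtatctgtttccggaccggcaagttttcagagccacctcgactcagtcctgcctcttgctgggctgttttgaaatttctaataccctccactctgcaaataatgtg
Bcl11a, intron 2 of 4, chr11:24129652-24129802: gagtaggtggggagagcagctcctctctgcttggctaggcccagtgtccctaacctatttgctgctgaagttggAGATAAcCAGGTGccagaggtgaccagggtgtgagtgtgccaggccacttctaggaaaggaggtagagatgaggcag
Nprl3, intron 2 of 12, chr11:32256243-32256393: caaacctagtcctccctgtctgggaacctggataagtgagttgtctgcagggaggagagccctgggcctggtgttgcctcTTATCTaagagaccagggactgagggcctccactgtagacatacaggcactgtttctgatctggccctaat
Iqgap2, intron 2 of 35, chr13:95813767-95813917: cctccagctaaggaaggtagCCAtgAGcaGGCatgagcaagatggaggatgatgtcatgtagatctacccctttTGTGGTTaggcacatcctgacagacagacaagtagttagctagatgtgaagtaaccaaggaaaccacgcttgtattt
Zfpm1, intron 3 of 9, chr8:122315044-122315194: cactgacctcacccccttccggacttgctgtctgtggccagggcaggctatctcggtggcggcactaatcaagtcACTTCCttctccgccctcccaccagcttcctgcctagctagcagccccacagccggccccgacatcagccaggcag
In Gata2, the capitals mark CTG, 8 spacer bases and the GATA site AGATAA. In Bcl11a they mark a GATA site 1 bp from the centre and the ZEB E-box CAGGTG. The Nprl3 peak has the GATA site on the minus strand, read here as TTATCT. The Iqgap2 peak has a CTCF match and a RUNX site on the minus strand, and the Zfpm1 peak has an ETS site on the minus strand.

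The paired E-box and GATA pattern (CTG, 8 bases, AGATAA) was found within 50 bp of the centre in 155 of the later-intron peaks. Among them were the Gata2 peak above and the 2 peaks shown next, which lie in listed genes described further on. Etv6 encodes an ETS-family repressor that stem cells need, while Ptprd, a receptor phosphatase gene, is on the neural list.
Ptprd, intron 7 of 39, chr4:77111008-77111158: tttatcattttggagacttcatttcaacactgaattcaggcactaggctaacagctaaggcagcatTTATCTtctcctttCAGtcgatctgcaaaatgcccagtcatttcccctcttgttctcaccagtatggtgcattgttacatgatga
Etv6, intron 4 of 8, chr6:134226881-134227031: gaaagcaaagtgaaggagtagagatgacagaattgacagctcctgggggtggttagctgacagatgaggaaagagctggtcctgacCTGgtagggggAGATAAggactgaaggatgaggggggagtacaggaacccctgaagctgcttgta
The pair was on the plus strand in Etv6 and on the minus strand in Ptprd. The nearest promoter was Ptprd itself for the first peak and Bcl2l14, an apoptosis-related gene, for the second.

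The intron labels were checked against curated RefSeq transcripts of the same genome build. The host transcript named for the peak spanned the centre in 18167 peaks (99.1%), and the intron number and intron count were the same in 17894 (97.6%). In 802 peaks (4.38%), the centre also lay in the first intron of at least 1 other curated transcript, and in 23 it lay in an exon of one. The host was a noncoding transcript in 1223 peaks (6.67%). The other 159 peaks had a host that could not be placed there: 83 named 1 of 31 accessions not found in the annotation, and 76 named a transcript that RefSeq places elsewhere. Of those 76, 73 named 1 of 10 transcripts with no intron in RefSeq, such as the microRNA precursor Mir5098 with 23 peaks on chromosomes 2, 8 and 11, although RefSeq has it on chromosome 5. These 159 peaks met the rule and were kept, but they were given no host gene.

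The place of the peaks in their genes is partly set by the rule, which leaves out intron 1 and the first 500 bp, and is given as a description. The median intron number was 4 (quartiles 2 and 9) in host transcripts with a median of 13 introns. Intron 2 held 4636 peaks (25.3%), introns 2 to 5 held 10594 (57.8%), and intron 11 or later held 3875 (21.1%). The last intron of the transcript held 2125 (11.6%). The median distance to the host's own TSS was 50421 bp (quartiles 19519.5 and 117726), and the median place was 60.2% of the way along the transcript. Within the intron, the median place was 49.0% of its length. The introns themselves had a median length of 10506 bp, and the median distance to a splice site was 2070 bp.

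Peaks lay near splice sites somewhat more often than the intron bases did. For 11469 peaks in 1 RefSeq Select transcript per gene, 12.1% (11.5 to 12.7) were within 200 bp of a splice site, against 8.79% of the later-intron bases. Within 1000 bp the shares were 36.0% and 30.0%, and within 5000 bp they were 69.2% and 59.4%. Every base of a short intron is near a splice site. The bases counted also include repeats, whereas the rule left out peaks with a repeat at the centre. The parts of intron length and of repeats in this difference were not tested.

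The distance to the nearest TSS of any gene had a median of 29888 bp, close to the 29898 bp of the 24133 intergenic peaks outside repeats and above the 9721.5 bp of the 9244 first-intron peaks outside repeats. Under 10 kb from a TSS were 19.0% of later-intron, 21.3% of intergenic and 50.7% of first-intron peaks. Over 100 kb were 14.7% of later-intron and 2.99% of first-intron peaks. Their base composition was close to both, with a median GC content of 47.7%, against 48.5% in first introns, 47.5% between genes and 63.3% at promoters. They held a median of 6 CpGs per peak, against 38 in promoter peaks, and soft-masked repeat bases made up a median of 9.82% of the peak.

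Per length of sequence, later introns had fewer peaks than first introns and more than the space between genes. Intron bases were numbered by the smallest intron number over all curated transcripts, which left 17422 peaks outside repeats in 674.9 Mb of later intron. This was 25.8 ± 0.196 peaks per Mb (counting SE), against 35.1 ± 0.352 in first introns and 14.8 ± 0.0962 between genes. The ratio of later to first introns was 0.735 (95% interval 0.717 to 0.753). Density was 27.4 peaks per Mb in intron 2, 26.1 in introns 6 to 10, 24.3 in introns 11 to 20 and 22.0 beyond intron 20. Introns 2 to 5 had values between 25.3 and 27.4, so the step from intron 1 to intron 2 was larger than any step after it. Counted over bases that are not repeat-masked, the densities were 48.9, 36.4 and 25.7 peaks per Mb for first introns, later introns and intergenic sequence.

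**Figure D1:**
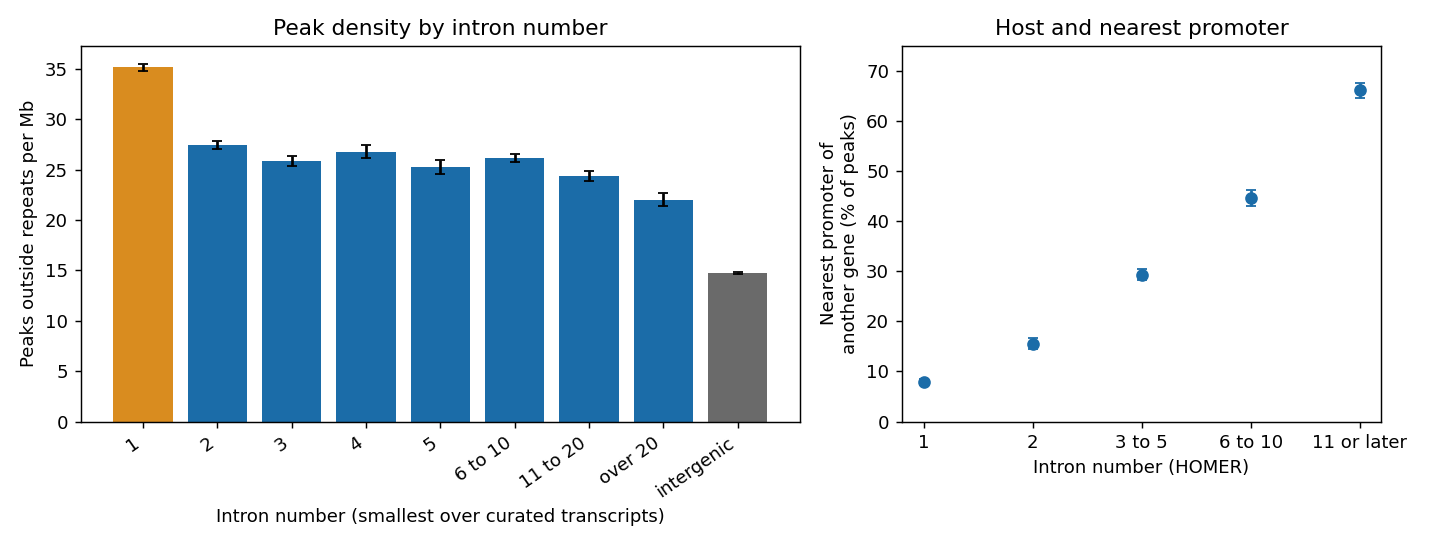
Left, peaks outside repeats per Mb by intron number (bars, with the counting standard error), with first introns in orange, later introns in blue and intergenic sequence in grey. Right, the percentage of peaks whose nearest promoter is of another gene than the host, by intron number (points, with 95% Wilson intervals), which goes from 7.87% in first introns to 66.1% in intron 11 or later.

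Among chromosomes, the X had the fewest later-intron peaks per Mb of later intron, with 8.35, and the autosomes ranged from 23.2 on chromosome 1 to 35.2 on chromosome 11. All peaks outside promoters followed a like range, at 8.12 per Mb of the X and 22.0 to 36.8 per Mb of the autosomes. The X therefore stood low in peaks outside promoters as a whole, and later introns held 17.3% of them there.

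The nearest other peak of any class was a median of 5130.5 bp away, against 3020 bp for first-intron and 5007 bp for intergenic peaks. Another peak lay within 5 kb of 49.2% of the later-intron peaks, 64.8% of the first-intron peaks and 12059 of the 24133 intergenic peaks.

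The gene that holds a later-intron peak was often not the gene with the nearest promoter. Of 18117 peaks with both names, 6682 (36.9%, 36.2 to 37.6) had a nearest promoter of another gene, against 7.87% of first-intron peaks. The share was 15.5% in intron 2, 29.3% in introns 3 to 5, 44.7% in introns 6 to 10 and 66.1% in intron 11 or later. Later introns of a transcript lie farther from its TSS, and the part of this distance in the rise was not tested. Among the 6682 peaks, the other gene's TSS lay beyond the far end of the host in 4387 (65.7%) and inside the host in 2253 (33.7%). It lay beyond the host's start in 2, and the rest were not placed. A TSS beyond the host's start is farther from the peak than the host's own TSS, so that count was low by geometry. The other gene was protein-coding in 64.8%. Neither the host nor the nearest promoter shows which gene a peak acts on.

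The Iqgap2 gene shows this on a long transcript. It held 14 later-intron peaks from intron 2 to intron 32, and the nearest promoter was F2rl2 for 11, F2r for 2 and Iqgap2 for 1. F2rl2 and F2r encode protease-activated receptors and F2rl2 lies within the span of Iqgap2. The peak with Iqgap2 as its nearest promoter was the one printed above, 78080 bp from the TSS of Iqgap2, and it holds a CTCF match. Such a match was not particular to it, since peaks in intron 2 and intron 4 with F2rl2 as nearest promoter also had one.

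In Nprl3, 6 peaks lay in later introns, between 27354 and 45035 bp from the TSS of the α-globin gene Hba-a1. The nearest promoter was Nprl3 for 3 of them and Mpg, a DNA repair glycosylase gene, for 3, and was Hba-a1 for none. A GATA site was found in 3 of the 6, of which 1, at chr11:32245550-32246048, has the E-box and GATA pair.

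Zfpm1 held 9 later-intron peaks, 4 in intron 3, 4 in intron 4 and 1 in intron 5. All 4 in intron 3 had Zfpm1 as nearest promoter, and the other 5 had Trhr2, a thyrotropin-releasing hormone receptor gene. GATA sites were found in 4 of the 9. Bcl11a held 15, of which 14 lay in its long intron 2 and 1 in intron 3, from 9275 to 84074 bp from the TSS of the host transcript, and all 15 had Bcl11a as nearest promoter. GATA sites were found in 4 of these and RUNX sites in 5, while 1 peak, at chr11:24154506-24155004, matched none of the families searched. Gata2 held 1 later-intron peak, 9355 bp from the TSS of its host transcript.

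**Figure D2:**
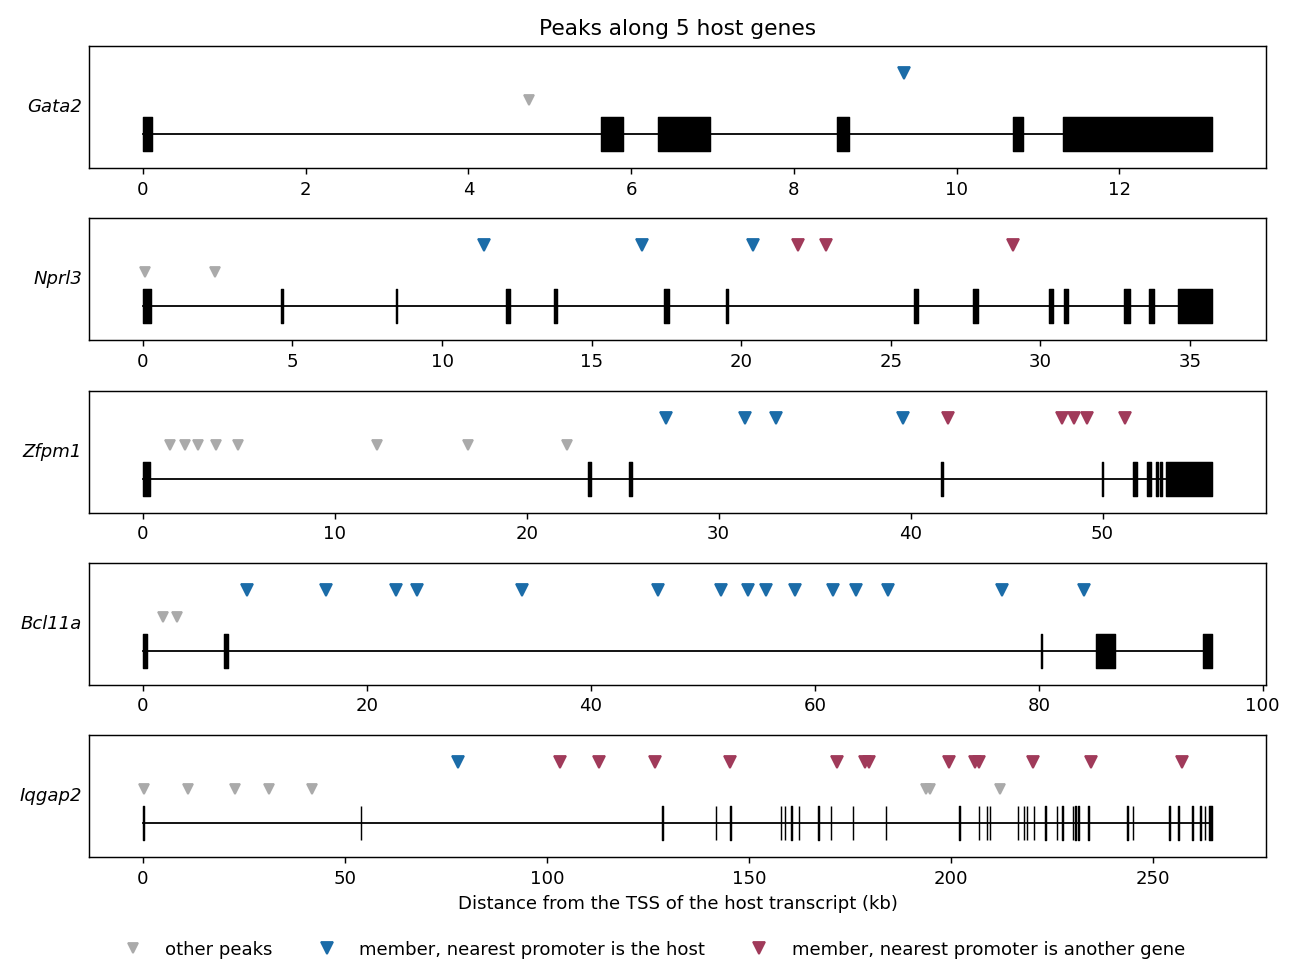
Exons (black) and peaks (triangles) along 1 curated transcript each of Gata2, Nprl3, Zfpm1, Bcl11a and Iqgap2, in kb from the TSS of that transcript. Blue triangles are later-intron peaks with the host as nearest promoter, red ones those with another gene, and grey ones other peaks. Introns are numbered by the transcript that HOMER names, which differs for 1 peak of Nprl3 from the one drawn. In Iqgap2 13 of 14 are red and in Bcl11a all 15 are blue.

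The 18167 peaks with a placed host lay in 6720 genes, with a median of 2 peaks per host. In 3337 genes there was 1 peak, in 2424 there were 2 to 4, and in 959 there were 5 or more, which held 8524 peaks together. The 284 genes with 10 or more held 4188 (23.1%). Across 17466 protein-coding genes with at least 2 introns, the length of later intron and the number of peaks had a Spearman correlation of 0.550. This is a description across genes, which are not independent.

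The 11 hosts with the most peaks had from 28 to 45 each. Pde4d, which encodes a cAMP phosphodiesterase, held 45 peaks in 1088.93 kb of later intron, and Pde4d was the nearest promoter for 5. Foxp1, a forkhead transcription factor gene that B cell development needs, held 44 in 502.5 kb, all with Foxp1 as nearest promoter. Arid1b, a subunit gene of the BAF chromatin remodelling complex, held 40, and it was the nearest promoter for 24. Lpp (a focal adhesion protein) and Wwox (an oxidoreductase) held 35 each, Snx29 (a sorting nexin) 34, and Tcf4 (an E protein transcription factor) 31. Sgms1, a sphingomyelin synthase gene, held 30, of which 29 had it as nearest promoter. Itpr1 (an IP3 receptor), Msi2 (an RNA-binding protein of stem cells) and Nav2 held 28 each, and Msi2 was the nearest promoter for 3 of its own. Per 100 kb of later intron these hosts ranged from 3.86 in Wwox to 13.5 in Arid1b, against 2.53 over all protein-coding genes. The hosts were picked by peak count, the numerator of this density, so a high value is partly built into the choice.

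Ranking by peaks per 100 kb favours hosts with little later intron, and the 10 densest with at least 5 peaks had between 7.04 and 54.4 kb of it. Among them, Ptger4, the gene of a prostaglandin E2 receptor, held 5 in 7.04 kb of later intron, or 71.0 per 100 kb. Trp53i11 had 52.4 per 100 kb and Akna, an AT-hook protein gene active in lymphocytes, 38.7. Ildr1, Rcsd1, Tram1, Zdhhc18, Bmf (a BH3-only inducer of apoptosis) and Tmprss3 had between 31.8 and 38.1. Emilin2, a gene of an extracellular matrix glycoprotein, held 17 in 54.4 kb, or 31.2. Rcsd1 was the nearest promoter for 0 of its 5 peaks, whereas Ptger4 was for all 5 of its own.

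Lists of 20 genes each were used to describe the hosts by role. Of the stem and progenitor transcription factors, 19 of 20 held a later-intron peak (182 peaks, 7.07 per 100 kb of later intron). Foxp1 had 44, Etv6 21, Erg (an ETS factor) 16, Bcl11a 15, and Runx1 and Ikzf2 13 each. Hhex, with 2.17 kb of later intron, had 0. Over all protein-coding genes with at least 2 introns, 6332 of 17466 (36.3%) held one. Long genes held one more often: of the 1505 genes with at least 100 kb of later intron, 1229 (81.7%) did.

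The lineage lists were more mixed, and are set beside 36.3% of all protein-coding genes and 2.53 peaks per 100 kb over those genes. Of the erythroid and megakaryocyte genes 13 of 20 held a peak (44 peaks, 6.88 per 100 kb), led by Zfpm1 with 9 and Vwf, the gene of von Willebrand factor, with 8. Slc4a1, Epor, Klf1 and others had 0, but these 3 have little later intron, with 8.32, 1.87 and 1.26 kb. Of the granulocyte and macrophage genes 13 of 19 measured did (32 peaks, 7.96 per 100 kb), with 8 in Zeb2, a zinc finger repressor gene, and 4 in Csf1r, the receptor gene of macrophage colony-stimulating factor. Of the B cell genes 8 of 19 did (64 peaks, 5.26 per 100 kb). That share, 42.1% (23.1 to 63.7), was near the share of all genes, which lies within its interval. Ebf1, a B lineage transcription factor gene, had 25 and Pax5, which keeps B cell identity, had 9, none of them with Pax5 as nearest promoter. Of the T cell genes 14 of 20 did (52 peaks, 4.62 per 100 kb), with 16 in Ikzf1 and 0 in the 71.8 kb of later intron of Bcl11b. Cebpe and Rag1 have no later intron in the annotation and were not counted.

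Among blood signalling and cytoskeleton genes, 18 of 20 held a peak (145 peaks, 3.72 per 100 kb), with 21 in Prkcb, a protein kinase C gene, and 17 in Elmo1. Of 20 neural genes, used as a list from outside the blood lineages, 17 held one. This share was above that of all genes but near that of genes with long later introns, given next. The list had 20334 kb of later intron and 109 peaks, or 0.536 per 100 kb. There were 20 in Nrxn3, 18 in Dlg2, 18 in Magi2 and 0 in the 1713 kb of Lrp1b. Of the 136 genes with at least 500 kb of later intron, some of them on that list, 80.9% held a peak, with 0.871 per 100 kb. Of the 28 with at least 1000 kb, 92.9% held one, with 0.609 per 100 kb. Gene length was not adjusted for beyond this. The lists were chosen with earlier results of these data known, and no test of a list was made.

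Motif matches were counted as exact letter strings on both strands of the whole peak, for 15 families. The GATA pattern was AGATAA, the ETS pattern GGAAGT, the PU.1 pattern GAGGAAGT (which contains the ETS pattern), the RUNX pattern AACCACA and the CEBP pattern TTGCNNAA. The E2A E-box was CAGCTG, the ZEB E-box CAGGTG, AP-1 TGANTCA, TCF/LEF CTTTGAT and KLF CCACACCC. IRF sites were searched as 2 GAAA repeats with 2 bases between, the ETS-IRF composite as GGAA and GAAA in the same arrangement, EBF as TCCC and GGGA with 2 bases between, and CTCF as a core of 8 fixed letters. The E-box and GATA pair contains the GATA pattern. A match describes letters and does not show binding.

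ETS sites were the most frequent, in 43.9% of later-intron peaks (43.2 to 44.6), followed by the ZEB E-box in 33.4%, the E2A E-box in 31.5%, GATA in 28.0%, CEBP in 20.7%, RUNX in 18.1% and AP-1 in 17.0%. Over all 84243 peaks of the same width, the ETS share was 42.7%, GATA 24.1%, RUNX 16.1% and AP-1 15.3%. CTCF matches were in 11.8% (11.4 to 12.3), PU.1 in 9.52%, IRF in 7.76%, TCF/LEF in 7.56%, the ETS-IRF composite in 7.20%, KLF in 5.42%, EBF in 1.80% and the E-box and GATA pair in 1.65%. The patterns differ in length, from 6 fixed letters for ETS and GATA to 8 for CTCF and 9 for the E-box and GATA pair. Shorter strings match more often by chance, so the order of the families is partly set by the patterns. Shares are best compared between peak classes within a family. The median peak matched 2 families, and 1030 peaks (5.62%) matched none.

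For most families, the shares in first-intron and intergenic peaks were close. GATA was in 27.2% of first-intron and 27.3% of intergenic peaks, and RUNX in 18.6% and 17.9%. The widest gap was for CTCF, with 6.79% of first-intron, 11.8% of later-intron and 13.7% of intergenic peaks, whose intervals do not overlap. ETS (46.3% in first introns, 43.9% in later introns) and KLF (6.66% and 5.42%) went the other way. Promoter peaks had lower shares of GATA (8.66%) and RUNX (5.88%).

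**Figure D3:**
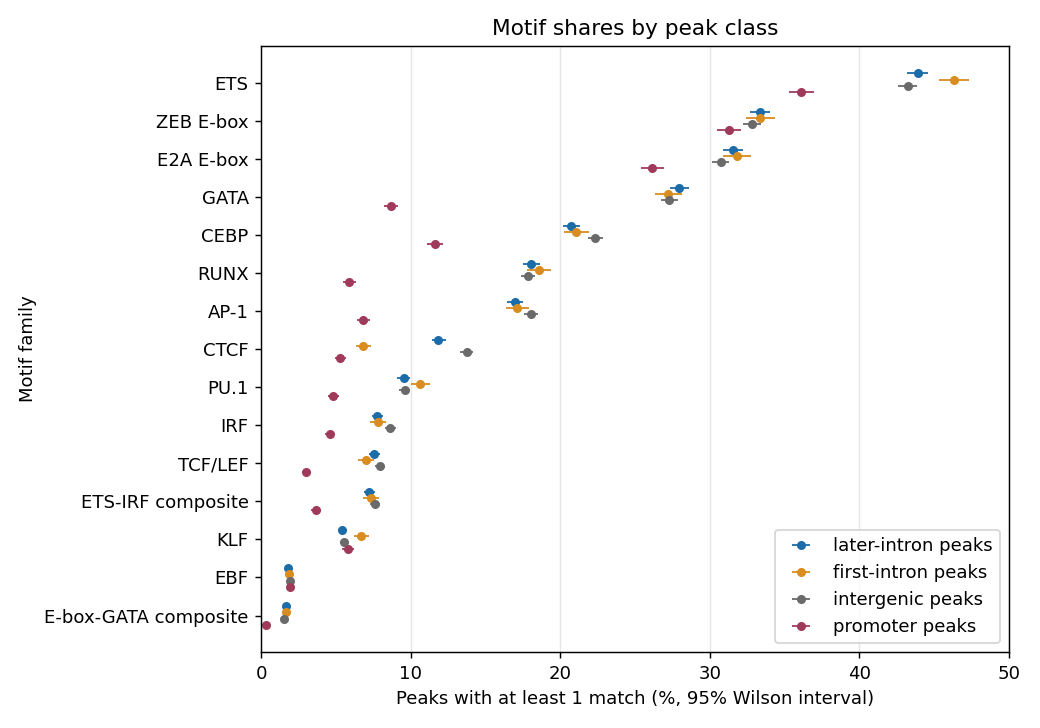
Percentage of peaks with at least 1 match of each motif family (x axis, with 95% Wilson intervals) for later-intron, first-intron, intergenic and promoter peaks. CTCF has 11.8% in later-intron and 6.79% in first-intron peaks, while GATA, RUNX and AP-1 nearly coincide in the 3 non-promoter classes and are lower at promoters.

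Matches of some families gathered at the peak centre. The rule did not use motifs, but it did use the centre, since peaks with a repeat or CpG island there were left out: the centre base was soft-masked in 5.84% of the peaks, while a median of 9.82% of the bases of a peak were. The even share is therefore not independent of the rule. If matches were spread evenly over the peak, 20.4% to 20.9% would lie within 50 bp of the centre. The share was 75.3% for CTCF, with a median of 22.5 bp from the centre, 55.3% for PU.1, 50.8% for the E-box and GATA pair, 40.7% for ETS, 37.2% for KLF and 36.9% for RUNX. It was 30.9% for the E2A E-box and 29.9% for AP-1. The single GATA pattern was less central, at 24.6%, and CEBP (22.8%), IRF (21.9%) and TCF/LEF (20.2%) were near the even share. For the E-box and GATA pair, first-intron peaks had 55.6% (47.6 to 63.2) and intergenic peaks 41.0% (36.1 to 46.0).

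**Figure D4:**
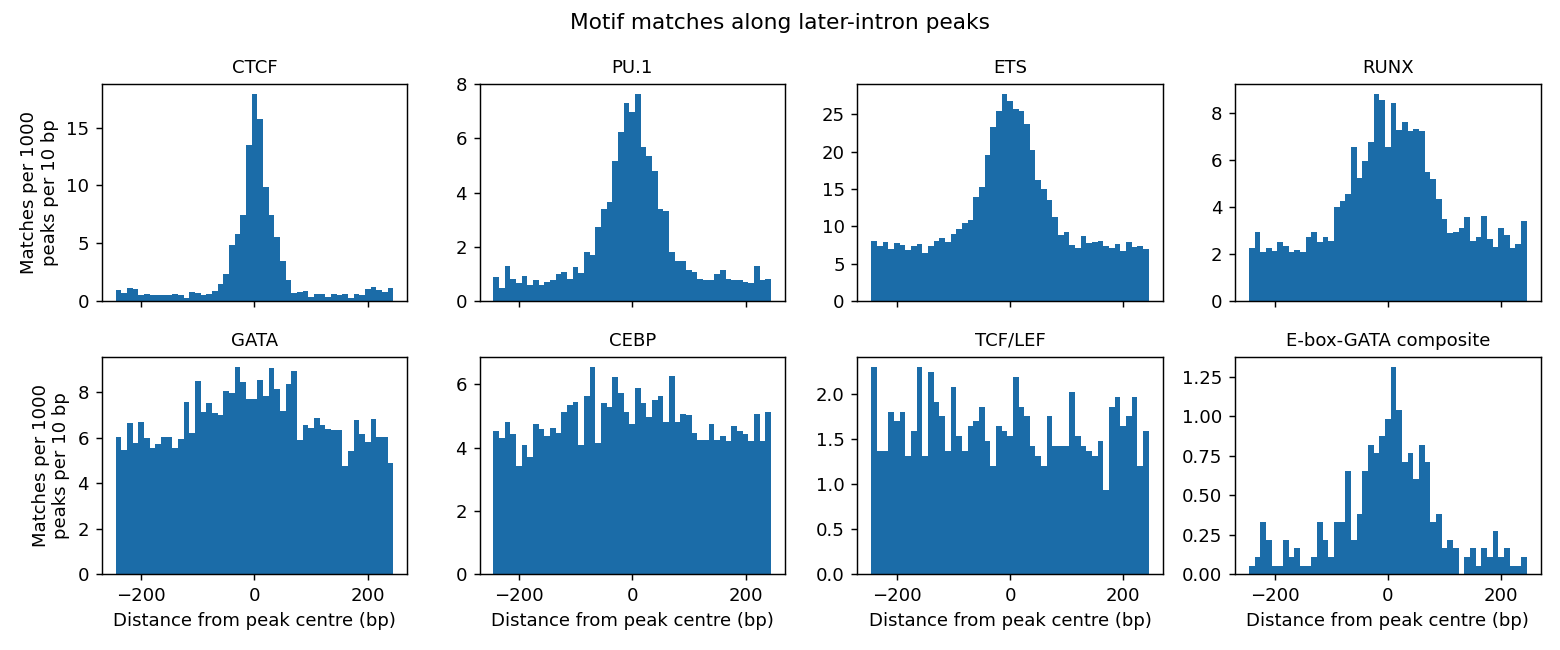
Motif matches per 1000 later-intron peaks in bins of 10 bp along the distance from the peak centre in bp, 1 panel per family, with a separate y axis in each. CTCF, PU.1, ETS, RUNX and the E-box-GATA composite rise towards the centre, GATA and CEBP do so slightly and TCF/LEF is near flat.

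CTCF matches became more frequent with intron number, with little change past introns 6 to 10. The share was 6.79% of peaks in intron 1, 8.71% in intron 2, 10.7% in introns 3 to 5, 14.4% in introns 6 to 10 and 14.7% (13.6 to 15.9) in intron 11 or later. Over the same steps GATA stayed between 27.2% and 28.4%, RUNX between 17.8% and 18.6%, and ETS between 41.4% and 46.3%. CTCF shares fell with the length of the intron, from 18.9% in introns up to 2 kb to 13.6% at 2 to 10 kb, 9.35% at 10 to 50 kb and 7.52% over 50 kb. Intron number and length move together, so the share was also taken within length classes. In introns of 2 to 10 kb, 8.21% (6.98 to 9.64) of first-intron peaks and 13.6% (12.7 to 14.4) of later-intron peaks had a CTCF match, and in introns up to 2 kb the shares were 7.83% (5.01 to 12.0) and 18.9% (17.4 to 20.4). Over 50 kb they were 6.77% and 7.52%, with intervals that overlap. In introns of 10 to 50 kb they were 6.23% (5.54 to 6.99) and 9.35% (8.62 to 10.1). Within a length class, the rise with number was less regular. For introns 3 to 5, 6 to 10, and 11 or later, the shares were 19.0%, 19.5% and 19.1% up to 2 kb. They were 12.0%, 16.3% and 15.2% at 2 to 10 kb, 8.97%, 10.7% and 10.9% at 10 to 50 kb, and 7.33%, 8.01% and 11.4% over 50 kb.

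**Figure D5:**
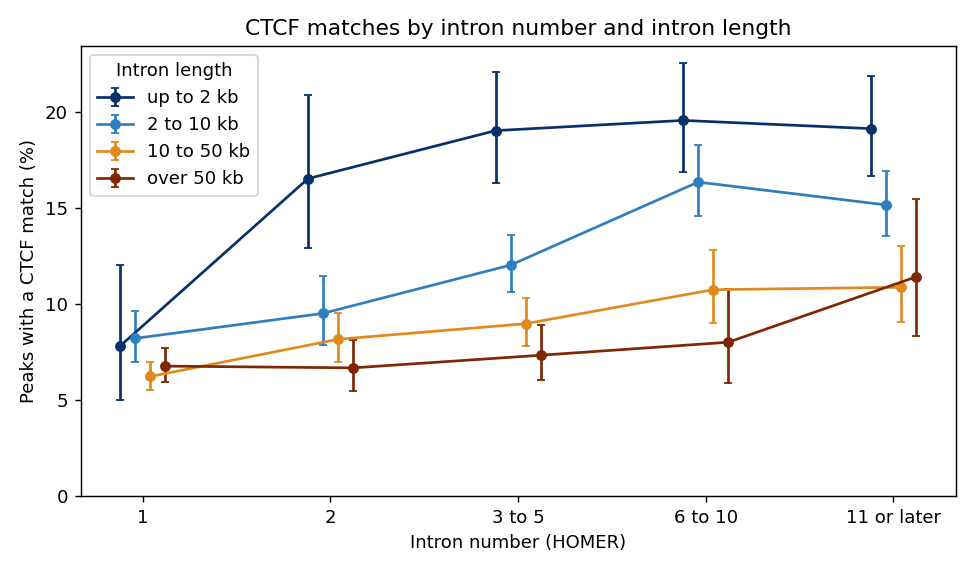
Percentage of peaks with a CTCF match (y axis) by intron number (x axis), 1 line per class of intron length, with 95% Wilson intervals. Introns up to 2 kb go from 7.83% in intron 1 to 16.5% in intron 2, and lie between 19.0% and 19.5% after it. Introns over 50 kb lie between 6.68% and 8.01% up to introns 6 to 10, and have 11.4% (8.31 to 15.4) in intron 11 or later.

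The CTCF share was also taken by distance from a TSS. Among later-intron peaks it was 14.2% within 10 kb, 12.9% at 10 to 30 kb, 10.5% at 30 to 100 kb and 9.64% (8.58 to 10.8) beyond. Intergenic peaks fell in a like way, with 15.6%, 15.9%, 12.6% and 10.2% in the same bins. First-intron peaks had 6.91%, 6.39%, 6.76% and 9.06% (6.21 to 13.0), so that beyond 100 kb the intervals of first-intron and later-intron peaks overlapped. Later-intron peaks whose nearest promoter was another gene had a CTCF match in 13.5%, against 10.9% where it was the host. Peaks alone within 5 kb had one in 13.4%, against 10.3% of those with a neighbour. CTCF shares were lower in peaks with a site of each of the 6 other families paired with it, least so for CEBP. The shares with and without the other site were 8.94% and 14.1% for ETS, 7.58% and 12.8% for RUNX, 9.0% and 12.4% for AP-1, and 9.95% and 12.6% for GATA. They were 10.8% and 12.3% for the E2A E-box and 11.1% and 12.0% for CEBP.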

How the data were processed

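ATAC-seq was done on 12 samples. For each cell type the authors mapped reads to mm10 and called peaks in the ENCODE pipeline, concatenated the peak lists of the cell types, kept non-overlapping peaks with chromVAR and annotated them with HOMER (4.10.2 in the submitters' processing notes). Reads that map to several places were left out in that pipeline, which lowers coverage in repeats. The deposited score column is 0 throughout and was not used, and the positions, annotation classes and TSS distances were used as deposited.

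Members were selected with the stated rule. Hosts, introns, exons and sequence came from 45756 curated RefSeq transcripts and the genome of GRCm38.p6. Shares have 95% Wilson intervals. Motifs were exact strings on both strands, checked on simulated sequences. No test was run, since the list has 0 columns of values per sample. Named genes are the 10 hosts with the most peaks (ties kept), the 10 densest with at least 5, and listed genes. Sequences are of the peak with a match nearest the centre in 5 genes and of listed genes with a central E-box and GATA pair. Some items under these rules are not reported here. The members, lists and rules were chosen with earlier results of these data known. Alternatives changed the TSS limit, repeats, transcript sets, the motif window and the gene assignment. Scripts ran in Python 3.11.15 with pandas 2.3.3, numpy 2.4.6, matplotlib 3.10.9 and scipy 1.17.1.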

Additional observations from a re-analysis of the deposited data

How the results depend on the processing

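The number of later-intron peaks stayed between 17103 and 22433 under the 5 alternatives of its rule, and the density ratio of later to first introns was 0.743 over unmasked bases and 0.717 with 1 transcript per gene. The share of peaks whose nearest promoter is another gene was 32.2% with 1 RefSeq Select TSS per gene and 39.0% for peaks over 10 kb from a TSS. Every motif share was lower in the central 200 bp, which is shorter by construction: GATA 14.0%, ETS 29.8%, PU.1 7.21%, RUNX 11.3%, CEBP 9.48%, E2A E-box 18.1%, ZEB E-box 16.0%, AP-1 8.80%, IRF 3.31%, EBF 0.96%, TCF/LEF 2.96%, KLF 3.05%, CTCF 10.0%, the E-box and GATA pair 1.22% and the ETS-IRF composite 3.81%. Without peaks over 0.25 soft-masked, the E2A E-box was in 32.4% and IRF in 7.26%, and the other 13 families moved by less than their interval. With genes matched by nearest promoter, 55% of the neural genes and 34.7% of all genes held a peak, and the other 6 lists stayed within their intervals. Those intervals are wide for lists of 20 genes. Blood signalling genes went from 90% to 70%, and erythroid and megakaryocyte genes from 65% to 45%. The stem and T cell lists fell to 90% and 65%, while the granulocyte and B cell lists rose to 78.9% and 47.4%. The cause of these shifts was not tested. No paired analysis was possible because the list holds no values per sample. Depth is unknown, and exact strings miss weaker sites.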

Other observations

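In later introns, some motifs lay more often on 1 strand of the host gene. The RUNX pattern AACCACA was on the host's sense strand in 39.0% of 3648 matches (37.5 to 40.6), so that its reverse complement was on the sense strand in 61.0%. For RUNX it was 39.1% within 50 bp of the centre and 39.0% beyond, and 35.8% of 1903 matches in first-intron peaks. The KLF pattern was on the sense strand in 41.6% of 1069 matches, with 35.6% within 50 bp of the centre and 45.2% beyond, and in 36.0% in first-intron peaks. The TCF/LEF pattern was there in 57.8% of 1449, with 65.1% within 50 bp and 55.9% beyond, and in 55.7% in first introns. The GATA pattern was there in 46.7% of 6111, with 44.0% within 50 bp and 47.6% beyond, and in 46.9% in first introns. In later introns the share was thus alike near and far from the centre for RUNX but not for KLF or TCF/LEF. First-intron peaks had the reverse order, with intervals that overlap. There, KLF had 38.4% within 50 bp and 34.7% beyond, and TCF/LEF had 53.8% and 56.1%. In later introns CEBP was near even at 51.0% of 4321. The sense strand of these peaks had 27.5% T against 24.9% A and 24.3% G against 23.3% C, and the part of this base imbalance in the strand shares was not tested. No chance test was made, and several matches can share a peak.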
